A study of Mus musculus with 6 samples.

Results

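The genes described here encode the guidance cues of the nervous system and their receptors: Eph receptors and ephrins, semaphorins with plexins and neuropilins, Slits with Robo receptors, and netrins with Unc5 receptors. They were taken by symbol, under a rule set with earlier results of these data known. The rule took 68 of the 53927 gene symbols in the deposited tables, namely 14 Eph receptors, 8 ephrins, 20 semaphorins, 11 plexins and neuropilins, 7 Slit and Robo genes, and 8 netrin and Unc5 genes. Their RNA was compared between mouse embryonic stem cells (ESCs) grown with BRD0705, an inhibitor selective for the kinase GSK3 alpha, at 8 µM (BRD0705/PD03) and ESCs grown with CHIR99021, which inhibits GSK3 alpha and GSK3 beta, at 3 µM (2i). All cells were labelled wild type and were kept in serum-free N2B27 with 1 µM of the MEK inhibitor PD0325901, and each medium had 3 libraries of total RNA depleted of ribosomal RNA. The labels give the line as E14, whereas their growth protocol describes derivation of B6D2F1 ESCs on feeders in each medium, which leaves the origin of the cells unsettled. The comparison asks how guidance gene RNA differs between ESCs kept with the GSK3 alpha inhibitor and ESCs kept in 2i.

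Guidance molecules act at cell surfaces and between neighbouring cells. Eph receptors are receptor tyrosine kinases bound by ephrins, membrane-anchored ligands that also signal back into the cell that bears them; A-type ephrins hold to the membrane by a lipid anchor and B-type ephrins cross it. Semaphorins signal through plexins, which switch off small GTPases of the Ras and Rap families, and most secreted class 3 semaphorins need a neuropilin as a co-receptor. Slits bind Robo receptors and netrins bind Dcc, Neo1 and Unc5 receptors. In embryos the same proteins also set tissue boundaries and steer blood vessels.

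Totals were 27825601 to 40790837 counts in BRD0705/PD03 and 16968959 to 51180228 counts in 2i. ESC markers were present in every library, with the sum of 10 such genes at 3176 to 3262 CPM (counts scaled for the depth of each library) in BRD0705/PD03 and 3802 to 4090 CPM in 2i. Fibroblast markers were also present. The sum of 22 such genes was 2130, 2613 and 2887 CPM in BRD0705/PD03 libraries 1, 2 and 3, against 1545.5, 1578 and 1539 CPM in 2i. Of the 22, 19 were higher and the other 3 were not called. The largest part of the sum was Fn1, which was not called. Fn1 alone stood at 743, 796 and 855 CPM in BRD0705/PD03 and 791, 821 and 817 CPM in 2i. Feeder cells are named in the growth protocol. The part of fibroblast RNA in the results below was not tested except where a value is given beside a result, and in bulk RNA fewer cells of a type and less RNA per cell cannot be told apart. Of 9 tested neural markers 5 were higher and 3 lower. Genes of committed neural progenitors and young neurons were near 0 and untested, with Neurog2 at 0.0527 and 0 CPM and Dcx at 0.0753 and 0.0198 CPM in BRD0705/PD03 and 2i, while Pax6, also a lens and pancreas gene, was higher at 13.1 against 0.363 CPM. The sum of 10 endothelial markers was 105.6 to 107.8 CPM in BRD0705/PD03 and 159 to 166 CPM in 2i. Of these, 5 were tested: Tek (16.7 against 7.35 CPM) and Flt1 (5.7 against 1.96 CPM) were higher, and Pecam1 (60.4 against 111 CPM), Vwf (21.7 against 38.4 CPM) and Kdr (1.7 against 3.12 CPM) were lower. Cdh5, the defining gene of the list, averaged 0.065 CPM in BRD0705/PD03 and was 0 in 2i, and the part of such cells in the results was not tested. Sex-linked RNA also differed. The Y-linked genes Ddx3y, which encodes a helicase, Eif2s3y and Uty averaged 122, 109 and 84.1 CPM in BRD0705/PD03. In 2i they averaged 3.03, 1.16 and 2.96 CPM. Of 717 tested X-linked genes 106 were higher and 473 lower in BRD0705/PD03, with a median log2 fold change of -0.78. The groups thus differed in sex-linked RNA as well as in medium. An effect of the medium and a difference between the cells of the groups cannot be told apart in any result below.

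Guidance genes moved in both directions. Of the 68 genes, 61 passed the filter on low counts, 26 rose and 18 fell in BRD0705/PD03 (edgeR quasi-likelihood test, adjusted p under 0.05), and 17 were not called. That is 72.1% of those tested, beside 61.4% of all 20422 genes tested; higher calls made up 42.6% beside 30.1%, and lower calls 29.5% beside 31.4%. Changes of 2-fold or more were found for 28 guidance genes, 17 higher and 11 lower, which is 45.9% of those tested beside 21.2% of all genes. The median size of the log2 fold change, sign aside, was 0.87 over guidance genes and 0.40 over all genes, and the median with sign was 0.25 against 0.00030. The groups did not overlap for 44 guidance genes (72.1%), beside 66% of all genes. Tested against a fold of 1.5, 15 were higher and 14 lower, beside 24.9% of all genes called in either direction. The 7 untested genes, Epha6, Epha8, Ephb1, Ntn5, Robo4, Sema3g and Unc5a, had means of 0.0476 to 0.368 CPM over the 6 libraries. Of the genes counted as called, Sema6d and Unc5d passed the filter through the BRD0705/PD03 libraries alone, and Plxnb3 through the 2i libraries alone. Epha1 and Ntn4, with 2 and 3 counts in 2i library 1, also depended on the BRD0705/PD03 libraries to pass.

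**Figure D1:**
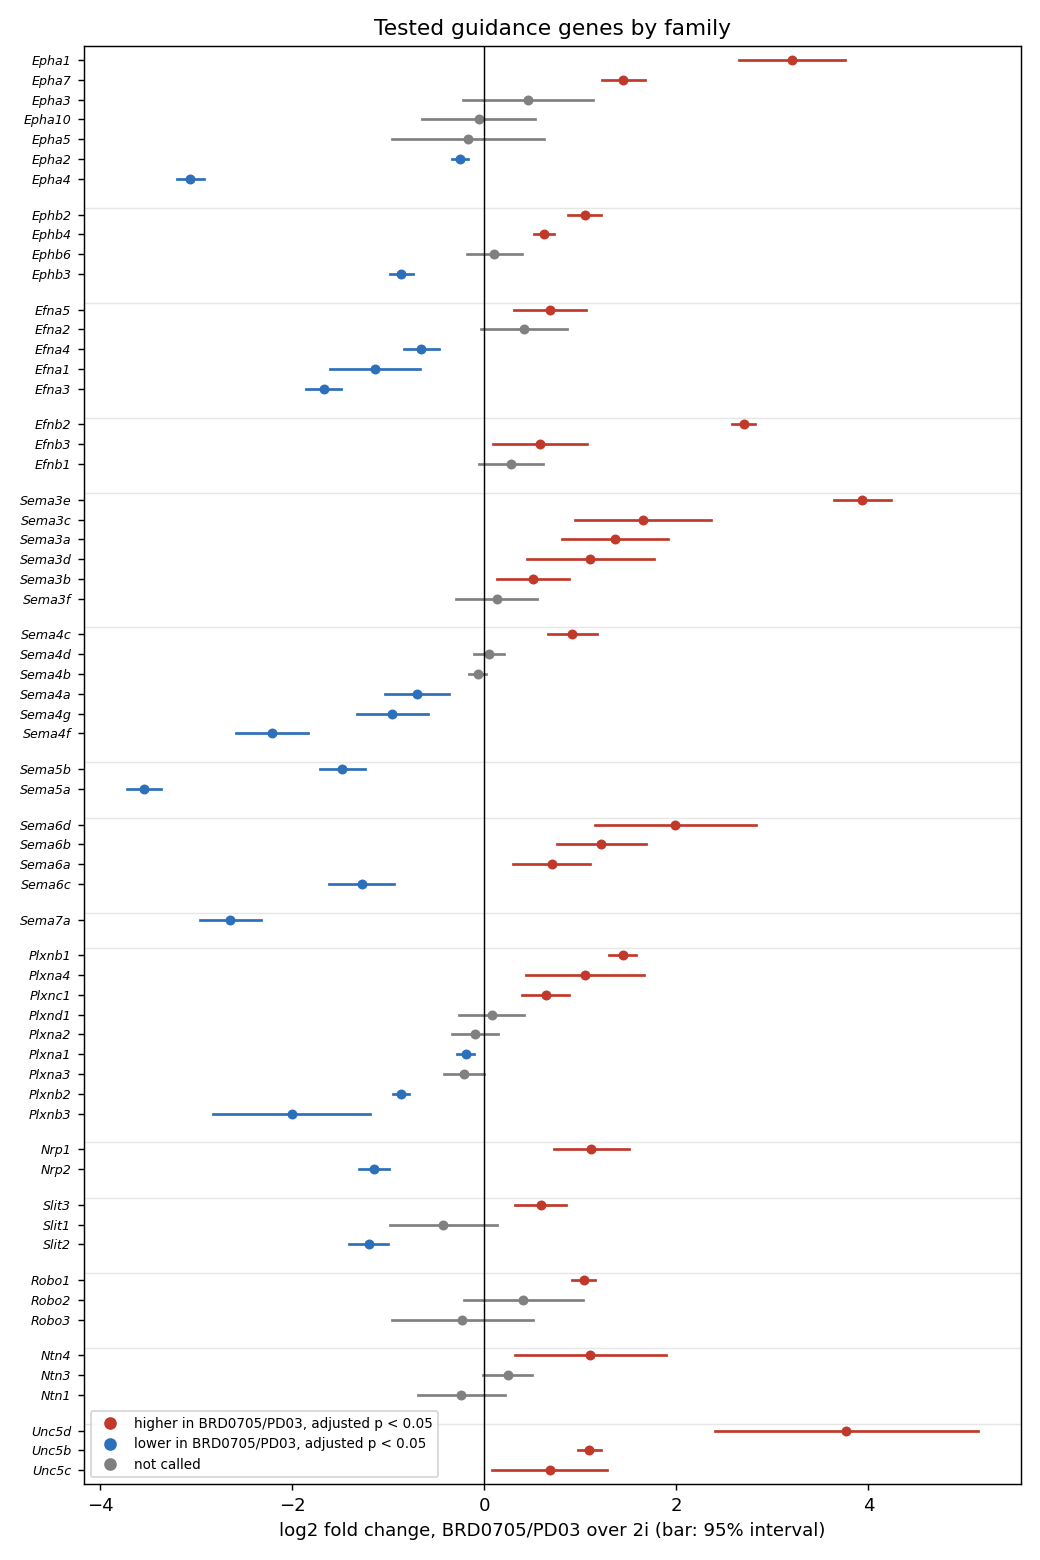
Log2 fold change of BRD0705/PD03 over 2i for the 61 tested guidance genes, grouped by family, with bars for the 95% interval; red points were called higher, blue points lower and grey points were not called. Most families hold points on either side of 0, while all class 3 semaphorins lie to the right, and the changes run from Sema5a at -3.54 to Sema3e at 3.94.

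In most families some members rose while others fell. Efnb2 and Sema3e stood out among the genes that rose, and Epha4 and Sema5a among those that fell. The 250 bases before the start of each of these 4 genes are shown because the results below turn on them; they are RefSeq sequences on GRCm38.p6, read 5′ to 3′ on the gene's strand. Capitals mark matches to CTTTGAA or CTTTGAT, core letters bound by the Wnt-responsive factors TCF and LEF, searched on both strands.
Efnb2, chr8:8661243-8661492, minus strand: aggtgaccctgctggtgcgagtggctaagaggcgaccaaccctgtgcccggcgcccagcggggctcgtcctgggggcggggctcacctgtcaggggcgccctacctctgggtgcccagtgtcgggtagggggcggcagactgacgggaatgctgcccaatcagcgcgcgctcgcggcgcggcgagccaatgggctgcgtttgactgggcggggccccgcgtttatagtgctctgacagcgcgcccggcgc
Sema3e, chr5:14025026-14025275, plus strand: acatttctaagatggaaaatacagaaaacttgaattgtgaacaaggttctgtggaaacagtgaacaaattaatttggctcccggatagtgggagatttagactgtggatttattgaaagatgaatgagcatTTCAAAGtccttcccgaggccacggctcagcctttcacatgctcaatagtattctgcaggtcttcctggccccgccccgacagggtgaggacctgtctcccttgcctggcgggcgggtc
Epha4, chr1:77515089-77515338, minus strand: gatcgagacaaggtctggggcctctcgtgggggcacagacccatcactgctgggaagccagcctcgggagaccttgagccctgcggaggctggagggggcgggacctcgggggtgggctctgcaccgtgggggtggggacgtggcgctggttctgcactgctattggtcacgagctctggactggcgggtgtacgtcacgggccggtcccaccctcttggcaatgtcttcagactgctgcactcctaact
Sema5a, chr15:32244563-32244812, plus strand: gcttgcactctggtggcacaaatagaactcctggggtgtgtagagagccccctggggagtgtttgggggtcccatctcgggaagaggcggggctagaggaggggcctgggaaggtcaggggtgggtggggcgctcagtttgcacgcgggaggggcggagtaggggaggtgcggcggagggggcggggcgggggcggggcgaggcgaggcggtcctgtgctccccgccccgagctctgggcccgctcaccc
Only the Sema3e window among these 4 holds a match. Among the 59 guidance genes with a promoter in the table, 3 hold a match (5.08%): Sema3e, which rose, and Epha2 and Nrp2, which fell; over 27025 promoters of the same length the share was 7.67%. The Sema3e window holds 7 CpG dinucleotides, the Epha4 window 14, the Sema5a window 17 and the Efnb2 window 27, beside a median of 16 over the 59 guidance promoters and 6 over all promoters.

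Among ephrins, the B-type ligand Efnb2 rose and 3 of the 5 A-type ligands fell (60%, beside 31.4% of all genes called lower). Efnb2, a transmembrane ligand of EphB receptors known for marking arteries (chromosome 8, 8617434 to 8661242), stood at 67.7, 65.2 and 69.2 CPM in BRD0705/PD03 libraries 1, 2 and 3, against 10.7, 10.3 and 10.1 CPM in 2i; values of 3 libraries are given in this order throughout. Every BRD0705/PD03 library lay far above every 2i library, a fold of 6.51 (log2 fold change 2.70 ± 0.06 standard error, adjusted p = 9.07e-18). Efna3, a lipid-anchored ligand of EphA receptors, stood at 4.81, 5.19 and 5.57 CPM against 17.1, 16.2 and 16.6 CPM in 2i, so its 2i level was 3.19 times higher (-1.67 ± 0.09, adjusted p = 5.33e-12). Efna4 stood at 8.6, 8.79 and 8.9 CPM, against 14.0, 14.9 and 12.3 CPM in 2i (-0.66 ± 0.09, adjusted p = 2.73e-06). Efna1 followed at a lower level, with 0.678, 0.763 and 0.76 CPM against 1.54, 1.64 and 1.66 CPM in 2i (-1.14 ± 0.22, adjusted p = 0.000203). For all 3 of these A-type ligands the groups did not overlap.

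These 3 genes lie side by side on chromosome 3, from 89271733 to 89338028, with no other protein-coding gene of GENCODE M21 wholly inside that span of 66.3 kb. An antisense gene model overlaps 14.1% of the exon length of Efna3 and 10.5% of that of Efna4. Whether the counting used strand is not stated in the labels. The A-type ligands encoded elsewhere did not fall: Efna5 was higher at 2.49 ± 0.23 against 1.57 ± 0.135 CPM (SD, n = 3 each; 0.69 ± 0.18, adjusted p = 0.00247), and Efna2 was not called at 2.17 ± 0.636 against 1.65 ± 0.17 CPM (95% interval of the log2 fold change -0.04 to 0.87). The call of Efna5 was lost when libraries were thinned to the smallest total (adjusted p = 0.0663). Of the remaining B-type ligands, Efnb3 was higher by 0.58 ± 0.23 (adjusted p = 0.0362), a call lost under DESeq2 (adjusted p = 0.122), with thinned libraries (0.0508) and on leaving out BRD0705/PD03 replicate 1 (0.147), BRD0705/PD03 replicate 2 (0.057), 2i replicate 2 (0.142) or 2i replicate 3 (0.119). Efnb1, which is X-linked, stood at 2.92 ± 0.288 against 2.41 ± 0.151 CPM and was not called (0.28, 95% interval -0.05 to 0.62, adjusted p = 0.132), although its groups did not overlap.

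Per exon length, Efnb2 held a mean of 47.0% of all ephrin RNA in BRD0705/PD03 and 7.54% in 2i. Efna3 and Efna4 held 10.2% and 26.2% in BRD0705/PD03 and 34.1% and 42.8% in 2i. The ephrin total on this scale (CPM per kb of exon length, summed over 8 genes) was 20.9 ± 0.467 in BRD0705/PD03 and 20.1 ± 0.861 in 2i, with overlapping groups. B-type ephrins summed to 11.2 ± 0.268 against 2.6 ± 0.198, and A-type ephrins to 9.65 ± 0.204 against 17.5 ± 0.717 CPM per kb. The lengths are the union of annotated exons, which need not be the transcripts that these cells make.

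**Figure D2:**
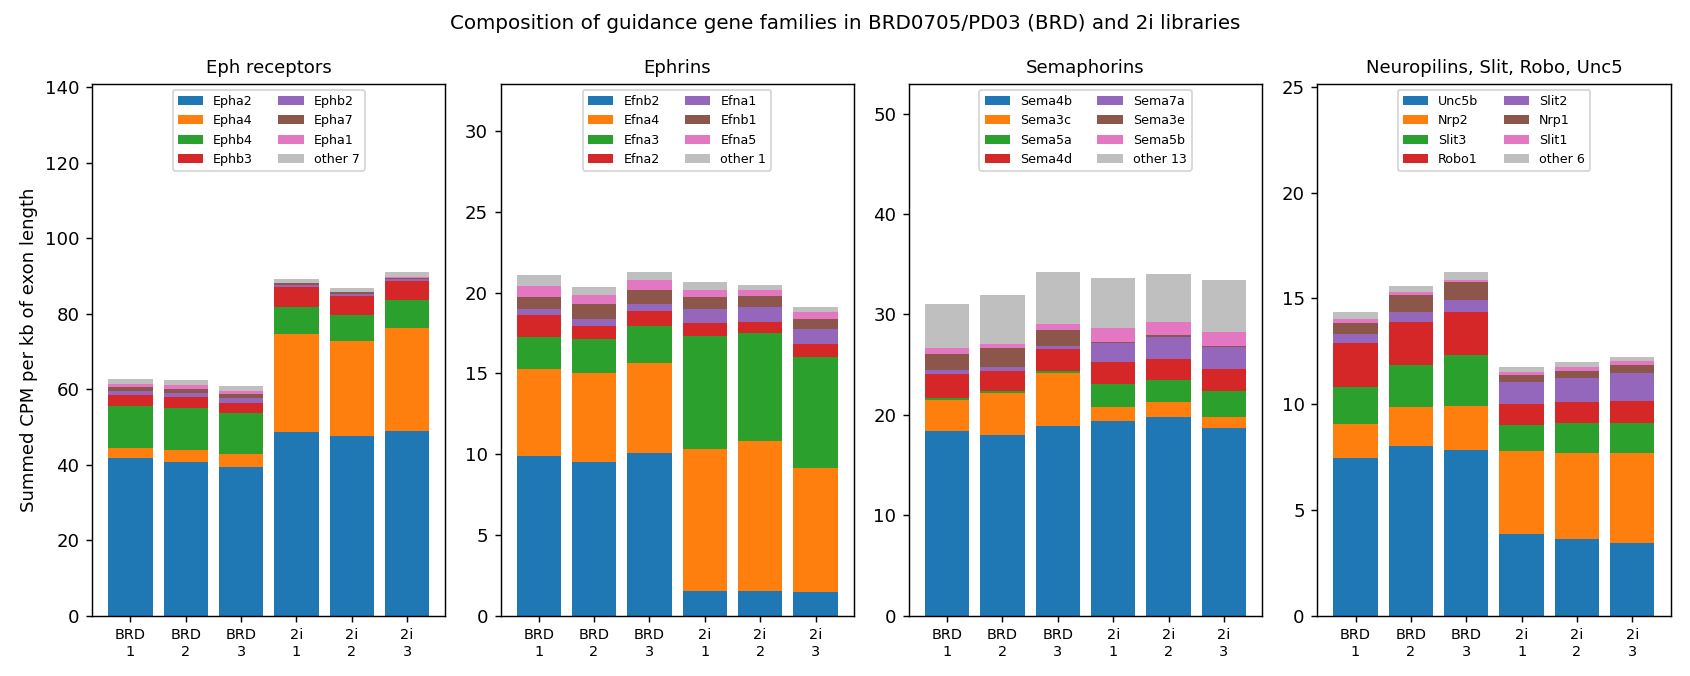
Stacked bars give the CPM per kb of exon length of each gene in each library, BRD0705/PD03 libraries left and 2i libraries right, for Eph receptors, ephrins, semaphorins, and neuropilin, Slit, Robo and Unc5 genes; the 7 highest genes have a colour and the rest are grey. The ephrin bars are of like height in all 6 libraries while Efnb2 takes 47.0% of them in BRD0705/PD03 and 7.54% in 2i, and the Eph receptor bars are lower in BRD0705/PD03, mainly through Epha4.

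Among Eph receptors, the largest difference in CPM was the fall of Epha4. Epha4, a receptor that binds ephrins of either type (chromosome 1, 77367185 to 77515088), stood at 22.4, 25.8 and 27.3 CPM in BRD0705/PD03, against 209, 201 and 219.8 CPM in 2i. The groups lay far apart, with the 2i level 8.33 times higher (-3.06 ± 0.06, adjusted p = 8.64e-14). Epha2, the most abundant Eph receptor per exon length in either medium, stood at 195, 190.4 and 184 CPM against 227, 223 and 229 CPM in 2i. Its groups were separate but close, at -0.25 ± 0.04 (adjusted p = 1.54e-05). Per exon length Epha4 held 5.04% of Eph receptor RNA in BRD0705/PD03 and 29.3% in 2i, and Epha2 65.5% and 54.4%. The Eph receptor total was 62.1 ± 0.949 against 89.0 ± 2.09 CPM per kb.

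Epha1 and Epha7 went the other way. Epha1 stood at 3.14, 3.85 and 3.78 CPM in BRD0705/PD03, against 0.119, 0.399 and 0.552 CPM in 2i, from 2, 20 and 14 counts (3.20 ± 0.26, adjusted p = 4.81e-09). Its 2i values were all low and spread widely. Exons of Zyx, which encodes the adhesion protein zyxin, overlap 6.01% of the exon length of Epha1 on the opposite strand, and Zyx, named after its value was seen, was also higher, at 17.3 ± 0.84 against 5.76 ± 0.0829 CPM; without the strand setting their reads cannot be told apart there. Epha7 stood at 9.77, 10.6 and 11.1 CPM in BRD0705/PD03 and 4.09, 3.53 and 4.1 CPM in 2i, with no overlap (1.45 ± 0.11, adjusted p = 1.02e-09). Epha3 (95% interval -0.22 to 1.13), Epha5 (-0.96 to 0.63) and Epha10 (-0.65 to 0.53) were below 1 CPM in the mean of each group and were not called. Epha8 was under the filter with 52 counts in BRD0705/PD03 and 2 in 2i, a ratio of 23.8 after scaling for depth (exact 95% interval 6.27 to 202, counting error only). Epha6 had 7 and 2 counts (ratio 3.21, interval 0.611 to 31.6). Such ratios were computed only for genes with at most 3 counts over the 2i libraries. That choice itself favours ratios on the side of BRD0705/PD03.

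Among the 4 tested receptors of the B type, 2 were higher, 1 was lower and 1 was not called (75% called, beside 61.4% of all genes). Ephb4, the main partner of Efnb2 in blood vessels, stood at 51.2, 52.2 and 49.9 CPM against 33.6, 31.9 and 34.0 CPM in 2i, a fold of 1.54 with no overlap (0.63 ± 0.05, adjusted p = 2.56e-09). Ephb2, a receptor of B-type ephrins in gut and brain, stood at 14.5, 14.5 and 14.8 CPM against 6.65, 7.34 and 7.1 CPM (1.04 ± 0.08, adjusted p = 2.09e-09). Ephb3, its close relative, fell to 19.7, 18.5 and 18.6 CPM in BRD0705/PD03, against 35.4, 34.2 and 33.9 CPM in 2i (-0.87 ± 0.06, adjusted p = 1.85e-10). So 2 of the 3 abundant EphB receptors were higher and Ephb3 was lower, each with groups that did not overlap. Ephb6, whose kinase domain lacks activity, stood at 3.52 ± 0.0387 against 3.26 ± 0.125 CPM and was not called (95% interval -0.18 to 0.39).

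Of the 19 tested semaphorins, 9 were higher and 7 lower (84.2% called, beside 61.4% of all genes). Of the 6 tested class 3 semaphorins, which are secreted, 5 were higher, beside 30.1% of all genes called higher, and Sema3f was not called (0.13, 95% interval -0.29 to 0.55). Sema3e, a ligand of the receptor plexin D1 that steers vessels and axons (chromosome 5, 14025276 to 14256689), stood at 15.6, 17.3 and 14.8 CPM in BRD0705/PD03, against 0.89, 1.26 and 0.75 CPM in 2i. The groups were far apart and all 2i values were low, a fold of 15.3 (3.94 ± 0.14, adjusted p = 3.29e-14). Sema3c, known for its part in heart outflow development, stood at 22.1, 29.9 and 37.5 CPM against 9.5, 10.7 and 7.93 CPM, with a wide spread among the BRD0705/PD03 libraries (1.65 ± 0.26, adjusted p = 0.00521). Sema3a, the collapsing factor of sensory axons, averaged 1.29 ± 0.162 against 0.515 ± 0.0678 CPM (1.36 ± 0.26) and Sema3d 1.26 ± 0.504 against 0.581 ± 0.0252 CPM (1.10 ± 0.31). Sema3b was higher by 0.51 ± 0.18 (adjusted p = 0.0194), which was lost under DESeq2 (adjusted p = 0.08), without BRD0705/PD03 replicate 2 (0.0531) or 3 (0.124) and without 2i replicate 2 (0.0578).

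Sema3d, Sema3a, Sema3e and Sema3c lie on chromosome 5 between 12383385 and 17730268, in a span of 5347 kb. Of 16 other protein-coding genes in it, 2 passed the filter, and both, named after their values were seen, were higher: Pclo, a presynaptic scaffold gene next to Sema3e, at 8.33 ± 0.451 against 0.423 ± 0.165 CPM (4.19 ± 0.18), and Cacna2d1, a calcium channel subunit gene, at 9.86 ± 1.27 against 6.59 ± 0.0898 CPM (0.58 ± 0.10). Sema3b and Sema3f span 112.8 kb on chromosome 9, and the 3 tested protein-coding genes between them, Gnai2, Slc38a3 and Gnat1, also named after their values were seen, were all lower (-0.44, -0.56 and -0.61), against the direction of Sema3b.

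The transmembrane semaphorins of class 5 and the lipid-anchored Sema7a fell. Sema5a, which carries thrombospondin repeats (chromosome 15, 32244810 to 32696341), stood at 4.22, 3.85 and 3.41 CPM in BRD0705/PD03, against 43.1, 41.9 and 48.4 CPM in 2i. All 3 BRD0705/PD03 values were low and the 2i level was 11.7 times higher (-3.54 ± 0.09, adjusted p = 9.6e-17), the strongest fall among the tested guidance genes. Sema5b stood at 3.67, 3.2 and 3.68 CPM against 10.3, 9.18 and 10.2 CPM (-1.48 ± 0.11, adjusted p = 1.06e-09). Sema7a, which can signal through integrins, stood at 1.11, 1.09 and 1.13 CPM against 5.99, 7.3 and 7.42 CPM (-2.64 ± 0.15, adjusted p = 1.95e-11). In these 3 genes the BRD0705/PD03 libraries lay below all 2i libraries. The SD among BRD0705/PD03 libraries was 10.6% of their mean for Sema5a, 7.83% for Sema5b and 1.74% for Sema7a.

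Class 4 held the most abundant semaphorin, which did not pass the test. Sema4b stood at 103.6, 101.6 and 106.7 CPM in BRD0705/PD03 and 109.7, 111.5 and 105.6 CPM in 2i, with overlapping groups (-0.07, 95% interval -0.15 to 0.02, adjusted p = 0.168). Sema4d, a ligand of plexin B1 known from immune cells, stood at 18.6, 15.5 and 16.995 CPM against 17.1, 16.2 and 16.3 CPM, also overlapping (0.05, 95% interval -0.11 to 0.21). Per exon length Sema4b held 56.9% of semaphorin RNA in BRD0705/PD03 and 57.2% in 2i. Around it, Sema4f fell to 1.14, 0.763 and 1.05 CPM in BRD0705/PD03, against 4.99, 4.47 and 4.5 CPM in 2i (-2.21 ± 0.18, adjusted p = 2.72e-09). Sema4g (-0.96 ± 0.18) and Sema4a (-0.70 ± 0.16) were lower too, and Sema4c was higher at 6.38 ± 0.479 against 3.38 ± 0.135 CPM (0.92 ± 0.12).

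Class 6, transmembrane ligands of A-type plexins, divided. Sema6c stood at 2.06, 2.72 and 1.89 CPM in BRD0705/PD03 and 4.51, 5.35 and 6.0 CPM in 2i, separate groups (-1.27 ± 0.16, adjusted p = 1.44e-06). Sema6b stood at 2.62, 2.18 and 2.33 CPM against 1.25, 0.758 and 1.22 CPM (1.22 ± 0.22, adjusted p = 8.98e-05). Sema6d rose by 1.99 ± 0.40 at 0.826 ± 0.292 against 0.185 ± 0.0707 CPM. Its 2i counts were 3, 13 and 3, so it passed the filter through the BRD0705/PD03 libraries. Sema6a rose by 0.70 ± 0.19 (adjusted p = 0.00371), a call lost with thinned libraries (0.33, adjusted p = 0.402). The semaphorin total was 32.4 ± 1.63 against 33.7 ± 0.299 CPM per kb, with overlapping groups, while its class 3 portion was 7.24 ± 1.37 against 2.42 ± 0.215 and its class 5 portion 0.701 ± 0.0432 against 3.78 ± 0.245 CPM per kb.

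**Figure D3:**
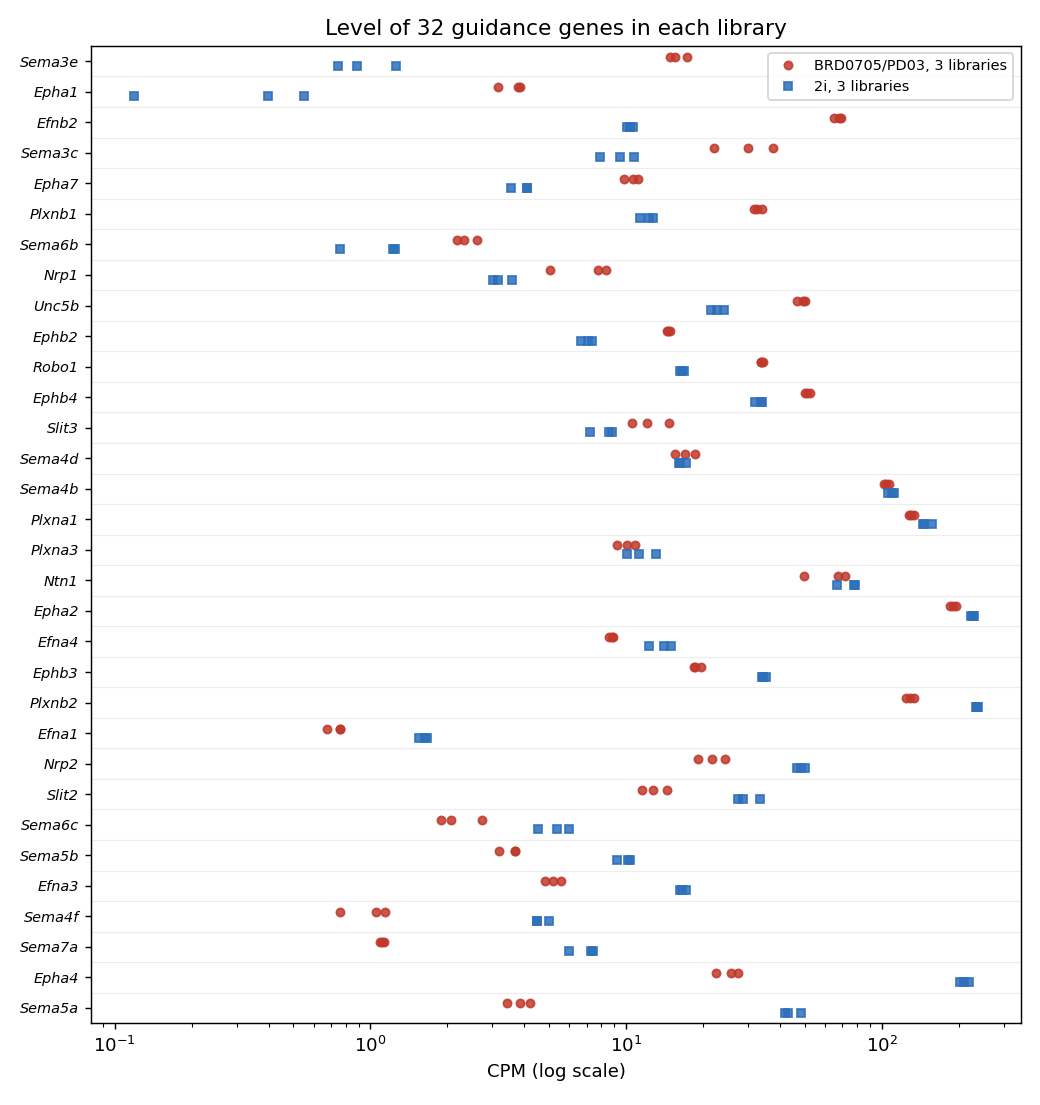
CPM on a log scale of the 32 guidance genes chosen by size of change or level, in the 3 BRD0705/PD03 libraries (red circles, upper position) and the 3 2i libraries (blue squares, lower position), ordered by log2 fold change. Sema3e, Epha1 and Efnb2 at the top and Epha4 and Sema5a at the bottom show wide gaps between groups, while Sema4d, Sema4b, Plxna3 and Ntn1 overlap.

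Of the 9 plexins, the receptors of semaphorins, 3 were higher and 3 lower (66.7% called, beside 61.4% of all genes). Plxnb2, the most abundant plexin per exon length, stood at 124.8, 128 and 134 CPM in BRD0705/PD03, against 236, 238 and 233 CPM in 2i. The 2i level was 1.83 times higher, with no overlap (-0.87 ± 0.04, adjusted p = 8.44e-13). Plxnb1, the receptor of Sema4d, moved against it, at 32.6, 33.9 and 31.5 CPM in BRD0705/PD03 and 12.8, 11.3 and 12.3 CPM in 2i (1.44 ± 0.07, adjusted p = 8.68e-13). The third B-type plexin gene, the X-linked Plxnb3, was lower at 0.188 ± 0.0787 against 0.746 ± 0.0596 CPM (-2.00 ± 0.39), and with thinned libraries the log2 fold change of Plxnb3 was -2.70. Its BRD0705/PD03 counts were 8, 6 and 4, so it passed the filter through the 2i libraries. Per exon length Plxnb2 held 44.4% of plexin RNA in BRD0705/PD03 and 59.5% in 2i, and Plxnb1 9.04% and 2.46%.

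Plxna1, a partner of neuropilins and of class 6 semaphorins, stood at 133.6, 129.5 and 127.6 CPM against 145, 145.7 and 156 CPM in 2i, a small difference with separate groups (-0.19 ± 0.04, adjusted p = 0.000546), and another gene model overlaps 10.7% of its exon length. Plxna3, which is X-linked, stood at 10.05, 10.8 and 9.2 CPM against 10.1, 11.3 and 13.1 CPM (-0.21, 95% interval -0.41 to -0.001, adjusted p = 0.0762), with overlap, and was called as lower without 2i replicate 1 (-0.27, adjusted p = 0.0368). Plxna2 was not called (95% interval -0.33 to 0.14). The low Plxna4 was higher by 1.05 ± 0.29, lost without BRD0705/PD03 replicate 3 (adjusted p = 0.0502), and Plxnc1, the receptor of Sema7a, was higher at 6.89 ± 0.213 against 4.41 ± 0.532 CPM (0.64 ± 0.12). Plxnd1, the receptor of Sema3e, stood at 4.05 ± 0.973 against 3.88 ± 0.234 CPM and was not called (95% interval -0.26 to 0.42).

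The 2 neuropilins went in opposite directions. Nrp2, which binds Sema3c and Sema3f, stood at 19.1, 21.8 and 24.4 CPM in BRD0705/PD03, against 46.6, 48.2 and 50.1 CPM in 2i (-1.15 ± 0.07, adjusted p = 6.25e-09). Nrp1, which binds Sema3a and the vascular growth factor VEGF-A, stood at 5.05, 7.77 and 8.34 CPM against 3.03, 3.15 and 3.59 CPM (1.12 ± 0.18, adjusted p = 0.000132). Neither pair of groups overlapped, and BRD0705/PD03 library 1 was the lowest of its group for both genes. Per exon length Nrp1 held 27.9% of neuropilin RNA in BRD0705/PD03 and 7.54% in 2i.

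Of the Slit genes, which encode the ligands of Robo receptors, Slit2 fell and Slit3 rose. Slit2, a secreted repellent of axons, stood at 11.5, 12.7 and 14.5 CPM in BRD0705/PD03 and 27.4, 28.7 and 33.5 CPM in 2i (-1.20 ± 0.09, adjusted p = 1.08e-07). Slit3 stood at 10.5, 12.02 and 14.7 CPM against 7.24, 8.56 and 8.84 CPM (0.59 ± 0.12, adjusted p = 0.000844). In neither gene did the groups overlap, and Slit1 was not called (-0.43, 95% interval -0.99 to 0.13). Their total was 2.7 ± 0.368 against 2.71 ± 0.266 CPM per kb. The receptor Robo1 stood at 34.3, 33.6 and 33.7 CPM against 16.5, 16.3 and 16.9 CPM, tight groups 2.05-fold apart (1.04 ± 0.06, adjusted p = 1.3e-11). Robo1 held 93.8% of Robo RNA per exon length in BRD0705/PD03 and 87.5% in 2i, and Robo2 (95% interval -0.22 to 1.03) and Robo3 (-0.96 to 0.51) were not called.

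In the netrin pathway the receptor gene Unc5b rose, and Ntn1, the most abundant netrin per exon length, did not pass the test. Unc5b, a netrin receptor of vessels and neurons, stood at 46.7, 50.2 and 49.0 CPM in BRD0705/PD03, against 24.2, 22.8 and 21.5 CPM in 2i, a fold of 2.14 with no overlap (1.10 ± 0.06, adjusted p = 4.74e-12). It held 97.7% of Unc5 RNA per exon length in BRD0705/PD03 and 98.2% in 2i. Unc5d, also taken for its low 2i counts, had 51 counts in BRD0705/PD03 and 3 in 2i, a ratio of 15.6 (exact 95% interval 5.04 to 78, counting error only). Its 2i counts were 2, 1 and 0, so it passed the filter through the BRD0705/PD03 libraries, and the fitted log2 fold change of Unc5d was 3.77 with all libraries and 4.91 without 2i replicate 1. Unc5c was higher by 0.68 ± 0.29 (adjusted p = 0.0469), with overlapping groups and a call that was lost in 9 of the alternatives, with adjusted p of 0.0505 to 0.665 over those. Ntn1 stood at 49.8, 67.6 and 71.6 CPM in BRD0705/PD03 and 78.4, 77.5 and 67.0 CPM in 2i (-0.24, 95% interval -0.69 to 0.22, adjusted p = 0.298), and BRD0705/PD03 library 1 alone lay apart from the others. Ntn3 was not called (0.25, 95% interval -0.01 to 0.50), although upper-quartile scaling called it higher (0.31, adjusted p = 0.0361). Ntn4 was higher by 1.10 ± 0.37 at 0.702 ± 0.18 against 0.323 ± 0.172 CPM, a call lost under DESeq2 (adjusted p = 0.0788), without BRD0705/PD03 replicate 1 (0.0779) and without 2i replicate 1 (0.0563) or 2 (0.0883).

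Several of these genes varied among the BRD0705/PD03 libraries together with the fibroblast markers, whose sum was lowest in library 1 and highest in library 3 (ratio 1.35). Of the 48 tested guidance genes whose mean reached 1 CPM, 16 (33.3%) had that order of the 3 libraries, beside 20.6% of all tested genes at that level. In 7 of the 16 the value in library 3 was at least 1.3 times that in library 1: Sema3c (1.70), Sema3f (1.86), Nrp1 (1.65), Plxnd1 (1.58), Ntn1 (1.44), Sema3b (1.42) and Slit3 (1.4). The share of all tested genes with that order and such a ratio was not computed, so the count of 7 has no background. Several genes with large changes did not follow that order, and the same ratio was 1.02 for Efnb2, 0.953 for Sema3e, 0.983 for Robo1 and 1.05 for Unc5b. Epha4 (1.22) and Efna3 (1.16), which fell, did have that order. The fibroblast list had log2 fold changes of -0.02 to 3.66, with a median of 1.14, and the highest values were those of Tagln (3.66) and Acta2 (2.58); the part of fibroblast RNA in the changes of these guidance genes was not tested.

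**Figure D4:**
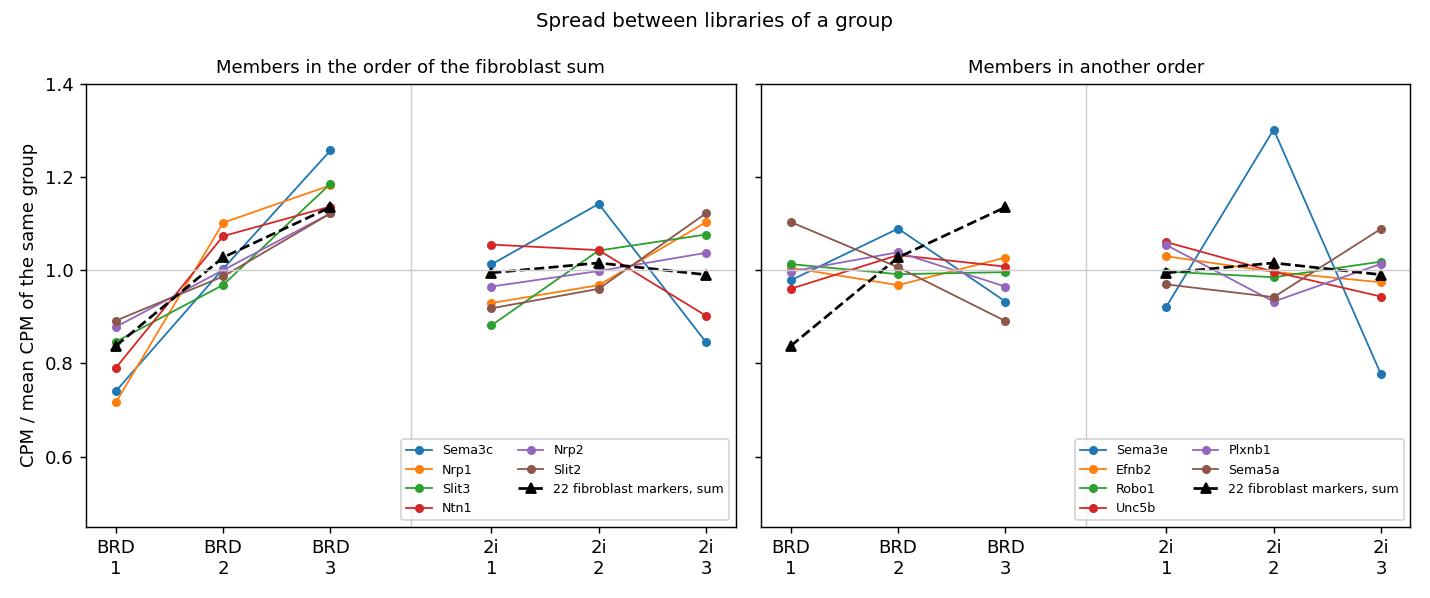
CPM of single genes in each library divided by the mean of the same group, BRD0705/PD03 left and 2i right in each panel, beside the sum of 22 fibroblast markers (black triangles, dashed); lines join the values of 1 gene and stand for no order of replicates. In the left panel Sema3c, Nrp1, Slit3, Ntn1, Nrp2 and Slit2 are lowest in BRD0705/PD03 library 1 and highest in library 3, as the marker sum is, whereas Efnb2, Robo1 and Unc5b in the right panel stay near 1.

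Genes that act with these receptors changed too. Of 79 co-receptors, adaptors and effectors listed for these pathways, 75 passed the filter, 32 were higher and 30 lower. So 82.7% were called beside 61.4% of all genes, with a median log2 fold change of 0.03 against 0.00030. Many of the called changes were small, and 26.7% were called with a change of 2-fold or more, beside 21.2% of all genes. Of the 5 genes for collapsin response mediators, which carry semaphorin signals to microtubules, 4 were higher. The shares called higher were 42.7% of the tested genes of this list and 30.1% of all genes. Dpysl4, named after its value was seen, was lower at 8.12 ± 0.123 against 10.3 ± 0.963 CPM (-0.35 ± 0.09, adjusted p = 0.00292). Crmp1 stood at 48.4 ± 3.42 against 5.11 ± 0.176 CPM (3.23 ± 0.07, adjusted p = 3.14e-17) and Dpysl3 at 59.9 ± 5.64 against 17.3 ± 0.666 CPM (1.78 ± 0.07). The kinase gene Pak1, an effector of Rac and Cdc42, stood at 74.4 ± 5.5 against 12.9 ± 0.228 CPM (2.53 ± 0.06), while its relative Pak2 fell by 0.42 on the log2 scale. Grip1, a scaffold for B-type ephrins, stood at 11.7 ± 0.553 against 2.61 ± 0.313 CPM (2.20 ± 0.12), and Nrcam, an adhesion co-receptor for class 3 semaphorins, at 10.2 ± 0.802 against 1.65 ± 0.43 CPM (2.53 ± 0.14). Enah, which builds actin filaments downstream of Robo receptors, was higher by 0.82, the tyrosine kinase gene Abl2 by 0.80, the plexin effector Mical1 by 1.08, Gpc1 by 0.97 and Grb10 by 1.15.

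Several other partners fell. Neo1, a netrin receptor, stood at 72.0 ± 2.47 against 121 ± 2.09 CPM (-0.75 ± 0.04, adjusted p = 1.44e-11), and Dcc, the other receptor of its kind, was under the filter at 0.108 against 0.0461 CPM. Adam10, a protease that cuts ephrins, stood at 24.7 ± 0.585 against 47.4 ± 1.04 CPM (-0.94 ± 0.05). Chn2, a Rac GTPase-activating gene, stood at 3.88 ± 0.325 against 14.1 ± 0.234 CPM (-1.87 ± 0.10, adjusted p = 3.91e-12). Its relative Chn1, which acts downstream of Epha4 and was named after its value was seen, was higher at 25.7 ± 1.34 against 17.2 ± 0.786 CPM (0.58 ± 0.07, adjusted p = 3.5e-07). The actin-binding gene Ablim1 (-1.59 ± 0.10) was lower, as were Vegfa, a neuropilin ligand (-0.72 ± 0.06), Mical3 (-0.54) and Srgap2 (-0.38).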

How the data were processed

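RNA-seq libraries of 3 BRD0705/PD03 and 3 2i samples were analysed. Per the submitters' processing notes, Salmon and the build mm10 were used; neither Salmon's version nor the annotation or strand setting was given in the sources used here. The deposited values are whole numbers per gene symbol and were taken as rounded estimated counts, unscaled by the authors. In edgeR 4.0.16 (R 4.3.3), genes passing filterByExpr were TMM-scaled and fitted together on group alone, with robust quasi-likelihood dispersions and two-sided tests, with Benjamini-Hochberg adjustment over 20422 genes and a threshold of 0.05. A standard error is the size of a log2 fold change over the square root of its F. CPM use effective library sizes. Coordinates and exon lengths came from GENCODE M21 on GRCm38 (mm10), where all 68 symbols matched 1 gene. The steps were tested on simulated data.

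The labels name no separate cultures: the p-values reflect the spread of these libraries, possibly technical. All libraries of a group differed beyond sampling noise (chi-square per degree of freedom 2.77 to 9.84; genes counted fewer than 20 times in a pair left out). Intervals from counts cover counting error only. They were computed for guidance genes with at most 3 counts over the 2i libraries, with no like rule for low counts in BRD0705/PD03. The members and gene lists were chosen with earlier results of these data known. Values per library are given for 32 genes: the 21 called with groups that do not overlap, a mean of at least 1 CPM and a 2-fold change, and the 22 tested with a mean of at least 10 CPM, 11 of them in the first set. Of the co-receptor and effector list, up to 10 called genes with the smallest p in each direction are named; some are not reported here. Estimated counts of 18 of the 68 genes include exon sequence shared with another gene model, and of 15 with a model on the opposite strand. As alternatives, each library was left out in turn, libraries were thinned to the smallest total, sex-chromosome genes were dropped, the replicate number was entered as a block, glmTreat was run at a fold of 1.5, other scaling factors (upper-quartile, median-ratio) and no filter or a mean of 1 CPM were used, and DESeq2 1.42.0 was run.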

Additional observations from a re-analysis of the deposited data

How the results depend on the processing

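Counts of called guidance genes were 26 higher and 18 lower, and stayed within 1.5 times of that under every alternative run except the test against a fold of 1.5, which called 15 higher and 14 lower. That test also called 19 higher and 8 lower co-receptor and effector genes (32 and 30 without it) and 2498 higher and 2596 lower genes in all (6138 and 6406 without it), because it asks for larger changes. Leaving out 1 library gave 23 to 26 higher and 18 to 19 lower guidance genes, DESeq2 gave 22 and 18, and thinning gave 19 and 18. With the replicate number as a block 25 were higher and 18 lower, Unc5c losing its call (adjusted p = 0.0601); deviations of same-numbered libraries correlated at -0.00822, 0.034 and -0.0357, so the numbers give no pairing. Of 894 values of single genes under the alternatives, 843 kept direction and side of the threshold, 40 lost and 2 gained a call, and 9 changed sign, all in genes that were not called: Epha10 with upper-quartile factors (0.0083), without BRD0705/PD03 replicate 3 (0.17) and without 2i replicate 1 (0.044), Epha5 without 2i replicate 3 (0.19), Robo3 without 2i replicate 2 (0.013), Plxnd1 (-0.14) and Sema3f (-0.13) without BRD0705/PD03 replicate 3, and Sema4d without BRD0705/PD03 replicate 1 (-0.011) and with thinned libraries (-0.012). Over the leave-one-out fits these genes reached -0.21 (Epha10), -0.42 (Epha5), 0.22 (Plxnd1), -0.38 (Robo3), 0.33 (Sema3f) and 0.11 (Sema4d) on their own side. The cause was not tested. Upper-quartile factors moved the median log2 fold change of all genes to 0.07.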
